A study of Mus musculus with 7 samples.

Results

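Excitatory synapses hold their receptors in place with layers of scaffold proteins, and 36 genes of such scaffolds were followed here in brain neurons of il4ra fl/fl.Syn cre mice. The genes were chosen by name, with earlier results of these data known. They are the rows of the deposited count tables that carry the listed gene symbols. All 36 were found among the 46333 genes of the tables. Neurons were prepared from whole brains of adult female mice on magnetic columns that hold back microglia, oligodendrocytes and astrocytes through antibodies. The study checked the purity of such isolates by flow cytometry, with an endothelial antibody among those used. It reported that the isolates were mostly neurons. Libraries of 3 cre+ mice (il4ra fl/fl, Syn cre present) were set against those of 4 cre- littermates (il4ra fl/fl, no Syn cre). Both genotypes thus carry Il4ra, the gene of the interleukin-4 receptor alpha chain, with a part of it flanked by the sites that Cre recombinase cuts at. Only cre+ mice carry the recombinase. Syn cre is a transgene under the promoter of synapsin 1, a vesicle protein of neurons of most kinds, so the gene is left intact in glia and vessels. The question put to the data is whether transcripts of the postsynaptic scaffold differ when neurons lack this receptor.

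The postsynaptic density is a sheet of protein under the membrane of an excitatory synapse, usually on a dendritic spine. The MAGUK proteins that the Dlg genes encode bind the tails of glutamate receptors and adhesion molecules. SAPAP proteins (the Dlgap genes) link MAGUKs to Shank proteins deeper in the sheet, and Shank binds Homer, which reaches metabotropic glutamate receptors and calcium stores. Around this core sit exchange factors for small GTPases, regulators of spine actin and the adaptors Cask, Lin7 and Magi, which share partners with the Dlg proteins. Variants of several of these genes, Shank3 among them, are known in human neurodevelopmental disorders.

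The libraries held 68213223 to 94376841 counts. The scaffold genes summed to 208152 to 236172 counts in cre+ libraries (0.25% to 0.301% of all counts) and 242131 to 362107 in cre- libraries (0.312% to 0.408%). The lowest count of any of them in any library was 242, so each was measured well above the counting floor and all 36 passed the filter on low counts. Il4ra itself was at 29.5, 28.7 and 24.4 CPM (counts scaled to the same library size) in cre+ libraries and 20.03, 23.2, 29.6 and 22.4 CPM in cre- libraries. The floxed part is a small piece of the transcript, so this level over the whole gene does not check the genotype labels. Markers of other cells were present in a preparation labelled as neurons, and the mean log2 CPM of 12 endothelial markers was above that of 20 neuronal, not synaptic genes in every library. In cre+ replicate 1 the scaffold genes stood lowest (24 of 36 had their lowest value of all 7 libraries there), and in cre- replicate 4 they stood close to cre+ libraries (27 of 36 had their lowest cre- value there).

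Most scaffold genes were at a lower level in cre+ neurons when libraries were scaled by the bulk of genes. Of 36, 31 had a log2 fold change (cre+ minus cre-) below 0, against 54% of all 21542 genes tested. The median over the scaffold genes was -0.45 and over all genes -0.04. The extremes were Dlgap2 at -1.35 ± 0.43 and Tanc1 at 0.47 ± 0.12 (SE). The 5 genes above 0 were Tanc1, Iqsec1, Shank3, Dlg1 and Git1.

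In the quasi-likelihood F-test of edgeR, 0 of 36 passed an adjusted p of 0.05, and 0% of all genes did. The lowest adjusted p among the scaffold genes was 0.0939 (Begain). limma-voom also called 0. At an unadjusted p under 0.05 edgeR gave 17 scaffold genes lower, where 9.75% of all genes were, and 2 higher, where 10.2% were. DESeq2, the test the study used, called 10 lower (Dlgap2, Dlgap3, Shank1, Shank2, Begain, Anks1b, Kalrn, Agap2, Baiap2 and Lin7b), against 5.48% of the 16345 genes that it gave an adjusted p, and 1 higher (Tanc1), against 6.7%. In 9 genes every cre+ library lay below every cre- library, a pattern of 9.72% of all genes, and in 2 every cre+ library lay above, a pattern of 8.94%. The DESeq2 count of lower scaffold genes was 4, among 512 of all genes, when cre+ replicate 1 was left out, against 10 among 895 with all libraries. When cre- replicates 1, 2, 3 and 4 were left out one by one it was 6, 5, 4 and 18, among 746, 348, 374 and 1047 of all genes. Shank1, Begain and Agap2 were among the lower calls in each of the 7 fits that left out 1 library. Shank2 was in 6 of them, Dlgap2, Dlgap3 and Lin7b in 4, Anks1b and Kalrn in 2 and Baiap2 in 1.

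**Figure D1:**
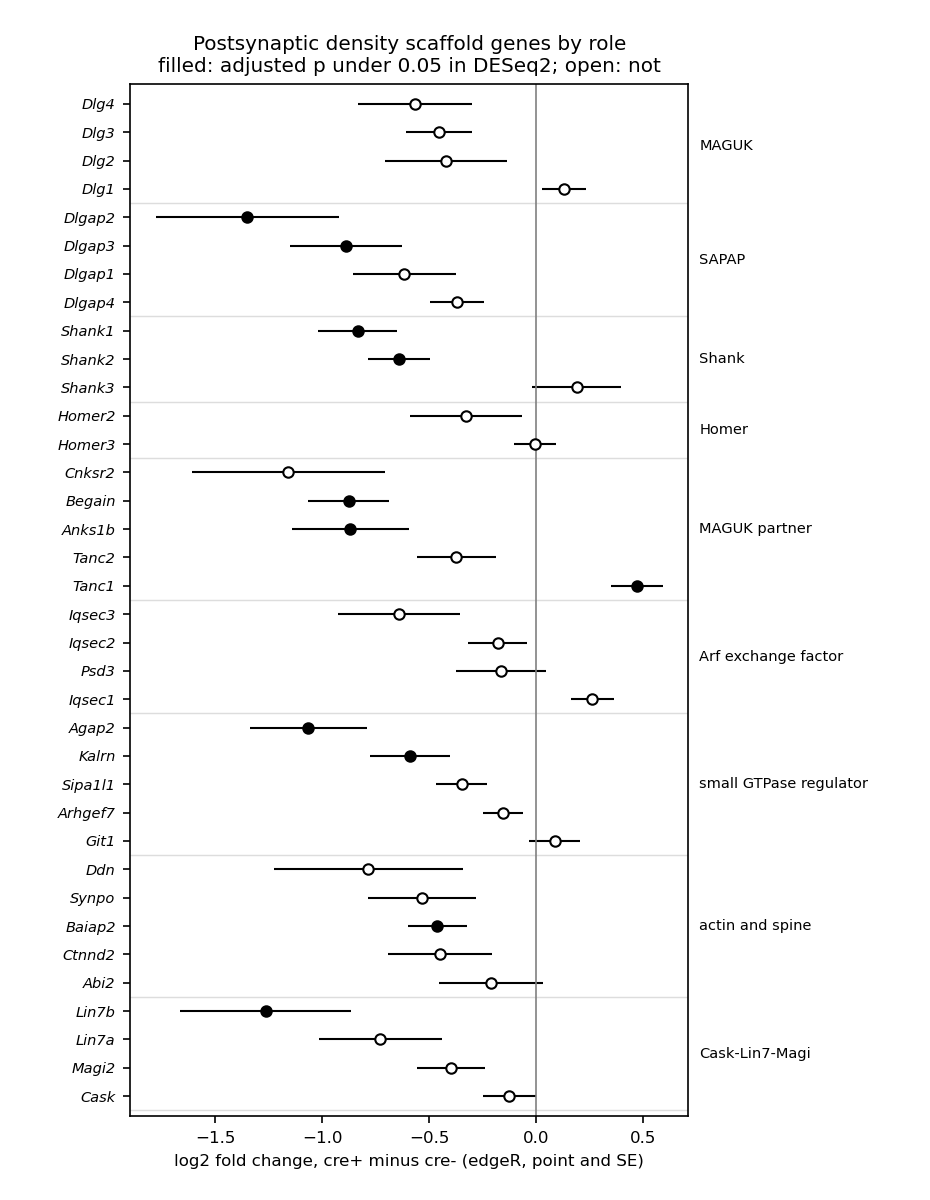
Log2 fold change of the 36 scaffold genes (horizontal axis, cre+ minus cre-, edgeR, point and SE), grouped by role; filled points passed an adjusted p of 0.05 in DESeq2. Of the 36 points 31 lie left of 0, from Dlgap2 at -1.35 to Homer3 at -0.01, and Tanc1 lies farthest right at 0.47; scaled to neuronal genes instead, 12 lie left of 0, as do 18.4% of all genes.

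The level of neuronal RNA moved with these genes. The neuronal, not synaptic genes had a mean log2 CPM of 6.22, 6.89 and 7.08 in cre+ libraries and 7.74, 7.28, 7.45 and 7.08 in cre- libraries, and the scaffold genes had 5.54, 5.89 and 6.07 in cre+ libraries and 6.52, 6.37, 6.36 and 5.99 in cre- libraries. All 20 neuronal genes had a fold change below 0, with a median of -0.64. DESeq2 called 5 of them lower, against 5.48% of the genes that it gave an adjusted p. Rbfox3, a nuclear protein of mature neurons, had -1.05 ± 0.40, and Map2, a microtubule protein of dendrites, -0.39 ± 0.15. In bulk RNA, fewer neurons in a sample and less of a transcript in each neuron cannot be told apart.

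Vessel markers moved the other way. The 12 endothelial markers summed to 14809 to 21235 CPM in cre+ libraries and 9729 to 13697 CPM in cre- libraries. All 12 had a fold change above 0 with a median of 0.66. DESeq2 called 10 of them higher, against 6.7% of the genes that it gave an adjusted p. Slc2a1, the glucose transporter of brain endothelium, was at 3502, 3709 and 3133 CPM in cre+ libraries and 1484, 1366, 1677 and 2357 CPM in cre- libraries. Cldn5, a tight junction protein, was at 3848, 1636 and 1783 CPM in cre+ libraries and 1869, 1647, 1752 and 2113 CPM in cre- libraries. The median fold change was 0.82 for 8 mural markers, 1.05 for 7 of meningeal fibroblasts, 0.81 for 8 of astrocytes, 0.82 for 8 of oligodendrocytes, 0.41 for 8 of microglia and 0.86 for 8 of ependyma and choroid plexus. Their summed levels in cre+ and cre- libraries were 523 to 730 and 338 to 497 CPM (mural), 488 to 931 and 287 to 455 CPM (fibroblast), 1517 to 1630 and 874 to 1141 CPM (astrocyte), 986 to 2260 and 828 to 1508 CPM (oligodendrocyte), 683 to 1071 and 174 to 1608 CPM (microglia) and 6033 to 19313 and 3841 to 9106 CPM (ependyma and choroid plexus). Of all these markers only Tagln (mural) and Tmem212 (ependymal) were at 0 in any library.

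Scaling to the neuronal genes in place of the bulk of genes moved the median of all genes by 0.64 and took the median of the scaffold genes to 0.18. The distance of the scaffold genes from all genes was -0.42, against -0.41 in the first scaling. A change of library factors shifts all genes nearly alike, so this distance could hardly move and tests nothing. Under the neuronal scaling 12 of 36 were below 0, as were 3970 of all 21542 genes (18.4%). There edgeR called 2 higher (Tanc1 and Iqsec1, among 2657 of all genes) and 0 lower (43 of all genes). DESeq2 called 0 lower (53 of all genes) and 4 higher (Dlg1, Tanc1, Iqsec1 and Git1, among 5218). When the mean of the vascular (endothelial and mural) markers entered the model as a term, DESeq2 called 1 lower (Shank1, among 63 of all genes) and 0 higher (48 of all genes). In edgeR with this term the scaffold median was -0.56, with 32 of 36 below 0, and the median of all genes -0.06. At an unadjusted p under 0.05 edgeR then gave 1340 of all genes, against 4305 without the term. The mean log2 CPM of endothelial markers was 9.88 to 10.4 in cre+ and 9.26 to 9.77 in cre- libraries. The term and genotype are thus hard to separate. Beyond these fits the part of other cells in the fold changes was not tested. Values below are in the first scaling unless named otherwise.

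**Figure D2:**
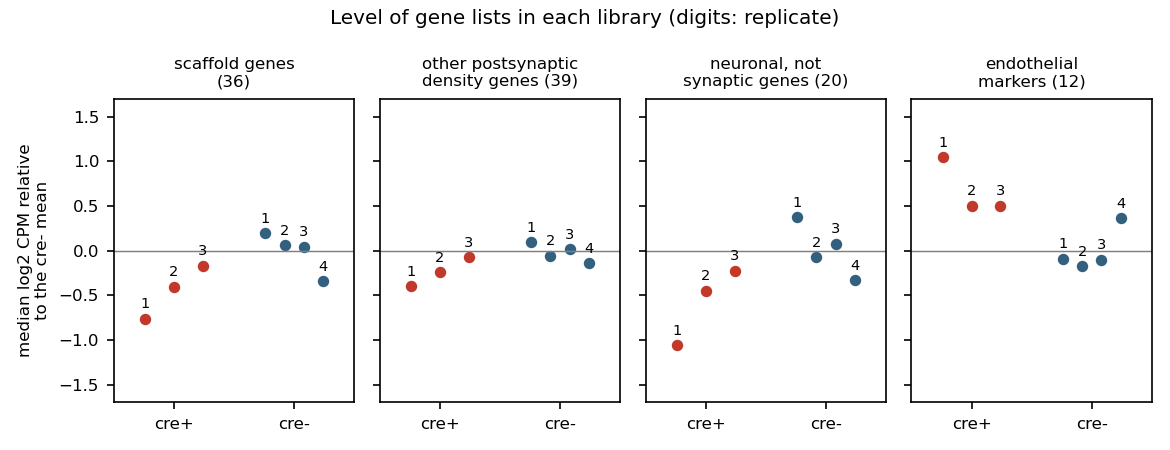
Median over a gene list of log2 CPM relative to the cre- mean (vertical axis), for each library, with cre+ libraries left of cre- libraries and the replicate number beside each point. Scaffold, other postsynaptic density and neuronal genes are lowest in cre+ replicate 1, where endothelial markers are highest at 1.04, and of the cre- libraries replicate 4 is closest to cre+ in scaffold (-0.34), neuronal (-0.33) and endothelial genes (0.36).

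The starts of 4 genes are printed to show how unlike in sequence the promoters of these scaffold genes are, 2 of genes that DESeq2 called lower (Agap2, Dlgap3) and 2 of genes whose fold change was near or above 0 (Homer3, Shank3). They were chosen after the values were seen and do not stand for a contrast by direction of change. RefSeq promoter windows (250 bases before to 50 after a start, GRCm38.p6, an older build than the GRCm39 of the counts) matched 28 of the 36 genes, with 56 windows, some of which share bases. Shank1, Shank2, Dlgap2, Ddn, Synpo, Cask, Abi2 and Psd3 were not matched. Capitals mark GGGCGG (the GC box, bound by Sp factors), CACGTG (an E-box) and TGACGTCA (the full cAMP response element), searched on both strands, where a GC box on the other strand reads CCGCCC. The windows lie at chr10:127078657-127078956 (Agap2), chr4:127172630-127172929 (Dlgap3), chr8:70282749-70283048 (Homer3) and chr15:89499358-89499657 (Shank3), each on the plus strand.
Agap2: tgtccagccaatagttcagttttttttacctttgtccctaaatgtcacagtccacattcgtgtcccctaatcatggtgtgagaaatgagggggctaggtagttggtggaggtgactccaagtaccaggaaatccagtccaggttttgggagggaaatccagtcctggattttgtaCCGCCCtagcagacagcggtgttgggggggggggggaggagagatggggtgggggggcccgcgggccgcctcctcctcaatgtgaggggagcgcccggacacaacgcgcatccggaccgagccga
Dlgap3: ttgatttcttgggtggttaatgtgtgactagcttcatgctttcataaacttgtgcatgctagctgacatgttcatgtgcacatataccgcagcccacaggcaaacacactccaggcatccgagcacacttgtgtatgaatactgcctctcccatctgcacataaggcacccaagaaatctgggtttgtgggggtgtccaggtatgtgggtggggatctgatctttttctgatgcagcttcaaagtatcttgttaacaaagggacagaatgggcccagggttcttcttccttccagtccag
Homer3: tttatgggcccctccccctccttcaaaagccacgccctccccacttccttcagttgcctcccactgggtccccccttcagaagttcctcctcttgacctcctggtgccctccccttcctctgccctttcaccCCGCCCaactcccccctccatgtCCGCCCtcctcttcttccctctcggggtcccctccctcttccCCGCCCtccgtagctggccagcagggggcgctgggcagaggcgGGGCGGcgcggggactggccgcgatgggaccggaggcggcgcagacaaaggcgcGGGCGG
Shank3: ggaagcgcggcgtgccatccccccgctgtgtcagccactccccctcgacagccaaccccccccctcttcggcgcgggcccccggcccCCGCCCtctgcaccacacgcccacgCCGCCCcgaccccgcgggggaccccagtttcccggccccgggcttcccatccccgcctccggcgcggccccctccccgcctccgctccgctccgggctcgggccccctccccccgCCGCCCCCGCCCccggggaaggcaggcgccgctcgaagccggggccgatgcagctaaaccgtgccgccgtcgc
Their GC content was 58.0% (Agap2), 47.7% (Dlgap3), 69.7% (Homer3) and 81.0% (Shank3), with 13, 2, 19 and 40 CpG sites in the same order. The GC box was present 1 time in Agap2, 5 times in Homer3 and 4 times in Shank3, and 0 times in Dlgap3. Other genes that DESeq2 called lower had windows both rich and less rich in GC. The GC content was 71.3% to 81.3% in Begain, 70.3% in Baiap2 and 64.7% in Lin7b. It was 47.3% to 76.7% in Anks1b and 60.3% in Kalrn. The GC box was present 5 times in Baiap2, 3 times in Lin7b and 0 times in Kalrn. Over all 56 windows the median GC content was 66.0%, against 52.7% of 32851 windows in the genome, and 62.5% held a GC box, against 35.7%. An E-box was in 8.93% against 7.15%, and the full cAMP response element in 1.79% against 1.79%. A match of letters is a description and not a bound site.

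The Dlg genes encode proteins of the MAGUK family. Dlg4 (PSD-95, chromosome 11, 69907768 to 69938348, plus strand, GRCm39), the most abundant MAGUK of excitatory synapses, was at 79.4, 121.5 and 148.8 CPM in cre+ libraries and 234.4, 153.8, 184.3 and 117.4 CPM in cre- libraries. The groups overlapped through cre- replicate 4, and the log2 fold change was -0.57 ± 0.27 (adjusted p of 0.283 in edgeR and 0.158 in DESeq2). Dlg2 (PSD-93) was at 25.1, 46.4 and 56.9 CPM in cre+ libraries and 73.5, 61.9, 53.1 and 40.9 CPM in cre- libraries, a fold change of -0.42 ± 0.29. Dlg3 (SAP102), which is prominent early in development, was at 61.2, 75.5 and 64.2 CPM in cre+ libraries and 112.5, 89.8, 93.3 and 71.4 CPM in cre- libraries. Its fold change of -0.45 ± 0.16 was the only one of the 4 to pass at an unadjusted p under 0.05 in edgeR, and its adjusted p there was 0.17. Dlg1 (SAP97), which is also made in epithelia and many other cells, was at 84.1, 91.6 and 83.2 CPM in cre+ libraries and 90.8, 77.3, 72.4 and 74.5 CPM in cre- libraries. It stood at 0.13 ± 0.10. Scaled to neuronal genes all 4 Dlg genes were above 0, where 18.4% of all genes were below 0 and the median of all genes was 0.60.

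The Dlgap genes encode the SAPAPs, and each of the 4 was lower at an unadjusted p under 0.05 in edgeR. So were 9.75% of all genes and 14 of the 20 neuronal, not synaptic genes. Dlgap2 was at 4.4, 10.2 and 12.6 CPM in cre+ libraries and 28.2, 28.2, 25.0 and 10.8 CPM in cre- libraries. The mean in cre+ neurons was 39.2% of that in cre- neurons, the lowest share of any scaffold gene, and cre- replicate 4 lay among the cre+ values. The adjusted p was 0.151 in edgeR and 0.0155 in DESeq2. Dlgap3, best known from the striatum, was at 36.6, 63.1 and 75.5 CPM in cre+ libraries and 122.5, 95.3, 133.2 and 81.0 CPM in cre- libraries. The groups did not overlap, the fold change was -0.89 ± 0.26, and the adjusted p was 0.131 in edgeR and 0.0168 in DESeq2. Dlgap1 was at 55.6, 70.8 and 80.6 CPM in cre+ libraries and 145.9, 115.2, 91.8 and 70.2 CPM in cre- libraries (-0.62 ± 0.24). Dlgap4, the member with the broadest expression, was at 176.9, 176.1 and 217.0 CPM in cre+ libraries and 240.6, 265.5, 265.3 and 210.5 CPM in cre- libraries (-0.37 ± 0.13). Scaled to neuronal genes, Dlgap2 (-0.79 ± 0.33) and Dlgap3 (-0.31 ± 0.27) stayed below 0 while Dlgap1 and Dlgap4 did not, and edgeR called none of the 4. In that scaling 18.4% of all genes were below 0.

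The Shank genes encode the deep scaffold that ties SAPAPs to Homer and to actin, and their fold changes had both signs. Shank1 (chromosome 7, 43959677 to 44009996, plus strand) was at 86.4, 67.3 and 111.1 CPM in cre+ libraries and 153.9, 188.4, 156.0 and 131.1 CPM in cre- libraries. The highest cre+ value was below the lowest cre- value. The fold change was -0.83 ± 0.18, and the adjusted p was 0.0948 in edgeR and 0.00225 in DESeq2. Shank2 was at 33.3, 44.6 and 44.2 CPM in cre+ libraries and 70.3, 68.9, 62.1 and 52.5 CPM in cre- libraries, again without overlap (-0.64 ± 0.15, adjusted p of 0.0963 in edgeR and 0.00565 in DESeq2). Shank3 (chromosome 15, 89383826 to 89444464, plus strand), whose promoter is the most GC-rich of those printed, was at 338.3, 187.4 and 234.1 CPM in cre+ libraries and 174.1, 236.8, 254.1 and 222.8 CPM in cre- libraries. It was highest in cre+ replicate 1, the library in which most scaffold genes were lowest, and its fold change of 0.19 ± 0.21 became -0.08 without that library and -0.04 with the vascular covariate. Shank3 is also known to be made outside neurons. Scaled to neuronal genes, Shank1 was at -0.20 ± 0.30 and Shank2 at -0.02 ± 0.27 (adjusted p of 0.686 and 0.964 in edgeR).

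Homer proteins bind the proline-rich stretch of Shank and of group I metabotropic receptors. Homer2 was at 10.4, 11.6 and 16.1 CPM in cre+ libraries and 14.1, 22.9, 15.5 and 11.3 CPM in cre- libraries, a fold change of -0.33 ± 0.26 with overlapping groups. Homer3, which is strong in Purkinje cells, was at 73.3, 61.5 and 70.0 CPM in cre+ libraries and 67.2, 63.4, 72.2 and 71.2 CPM in cre- libraries. Its fold change was -0.01 ± 0.10, the nearest to 0 of the 36, and its sign changed with the size factors of DESeq2. Of the Homer3 exon bases 22.9% are shared with Ddx49 on the other strand, and whether counting used strand is not stated in the sources at hand. Homer1, which belonged to the wider list below, was at 25.1, 47.7 and 32.9 CPM in cre+ libraries and 67.4, 41.9, 50.6 and 36.6 CPM in cre- libraries (-0.48 ± 0.26).

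**Figure D3:**
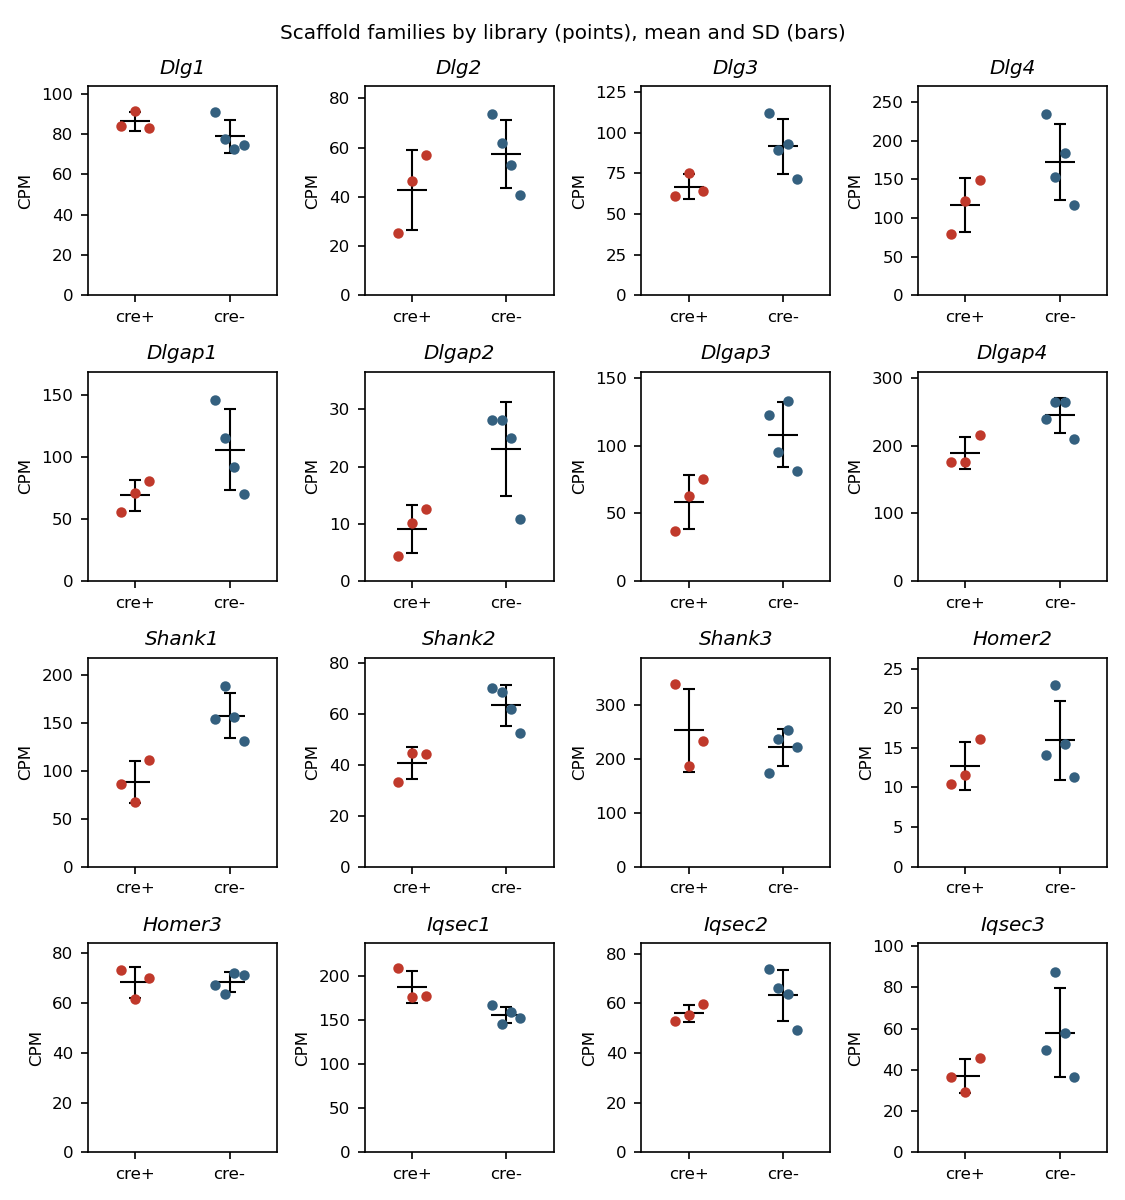
CPM (vertical axis, from 0) of the 16 genes of the Dlg, Dlgap, Shank, Homer and Iqsec families, with cre+ libraries left of cre- libraries; points are libraries and bars the mean and SD. Dlgap3, Shank1 and Shank2 are lower in every cre+ library and Iqsec1 is higher in every cre+ library. Scaled to neuronal genes Shank1 is at -0.20 ± 0.30, Shank2 at -0.02 ± 0.27 and Dlgap3 at -0.31 ± 0.27 (SE). Their adjusted p in edgeR is then 0.686, 0.964 and 0.44, and Iqsec1 is at 0.94 ± 0.31 (adjusted p of 0.0496 in edgeR).

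Of the direct partners of MAGUKs, Begain, which binds the guanylate kinase part of PSD-95, had the smallest p of the 36. It was at 38.3, 31.9 and 43.2 CPM in cre+ libraries and 67.8, 73.7, 86.1 and 49.6 CPM in cre- libraries. The groups did not overlap, and the fold change was -0.87 ± 0.19 (adjusted p of 0.0939 in edgeR and 0.00181 in DESeq2). Anks1b, an ankyrin repeat protein that shuttles between synapse and nucleus, was at 33.6, 54.9 and 56.3 CPM in cre+ libraries and 126.2, 74.5, 91.3 and 60.2 CPM in cre- libraries (-0.87 ± 0.27, adjusted p of 0.151 in edgeR and 0.0268 in DESeq2). Cnksr2, a scaffold of Ras signaling, was at 6.8, 19.7 and 21.2 CPM in cre+ libraries and 60.8, 28.8, 29.0 and 23.3 CPM in cre- libraries. Its groups did not overlap, but the spread was wide (-1.16 ± 0.45, adjusted p of 0.206 in edgeR and 0.0517 in DESeq2).

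The 2 Tanc genes, large ankyrin repeat scaffolds, had fold changes of opposite sign. Tanc1 (chromosome 2, 59442386 to 59676493, plus strand) was at 95.5, 87.6 and 78.2 CPM in cre+ libraries and 63.6, 56.1, 57.9 and 73.5 CPM in cre- libraries. Every cre+ library was above every cre- library, and the adjusted p was 0.103 in edgeR and 0.0207 in DESeq2. Its highest cre- value was in replicate 4 and its highest cre+ value in replicate 1, the libraries with the most endothelial marker RNA of their genotypes. With the vascular markers as a term its fold change was 0.47 and DESeq2 did not call it. The DESeq2 call was also lost with library totals as the scale and when cre+ replicates 1 or 2 or cre- replicates 2 or 3 were left out. Tanc2 was at 43.0, 54.7 and 64.1 CPM in cre+ libraries and 74.7, 71.3, 81.5 and 51.4 CPM in cre- libraries (-0.37 ± 0.18).

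The Iqsec genes and Psd3 encode exchange factors that load Arf6 and related small GTPases with GTP. Iqsec1 was at 208.3, 176.3 and 177.3 CPM in cre+ libraries and 166.9, 145.8, 159.1 and 152.4 CPM in cre- libraries, higher in every cre+ library (0.26 ± 0.10, adjusted p of 0.202 in edgeR and 0.102 in DESeq2). Iqsec2, an X-linked gene, was at 52.9, 55.4 and 59.6 CPM in cre+ libraries and 74.0, 66.2, 63.9 and 49.3 CPM in cre- libraries (-0.18 ± 0.14). Iqsec3, which is placed at inhibitory synapses through gephyrin, was at 36.6, 29.2 and 45.6 CPM in cre+ libraries and 49.4, 87.5, 58.0 and 36.7 CPM in cre- libraries (-0.64 ± 0.28). The Iqsec3 groups overlapped through cre- replicate 4 only. Psd3 had a fold change of -0.16 ± 0.21.

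Among further regulators of small GTPases, Agap2 (PIKE), a GTPase-activating protein that also enhances PI3-kinase signaling, had the largest fold change in size. It was at 92.2, 129.5 and 147.8 CPM in cre+ libraries and 276.4, 320.8, 287.4 and 145.5 CPM in cre- libraries. Only cre- replicate 4 reached into the cre+ range, and the fold change was -1.06 ± 0.27 (adjusted p of 0.104 in edgeR and 0.00422 in DESeq2). Scaled to neuronal genes it was -0.45 ± 0.30 (adjusted p of 0.284 in edgeR). Kalrn, an exchange factor for Rac that enlarges spines, was at 82.0, 127.2 and 113.8 CPM in cre+ libraries and 197.8, 171.2, 149.9 and 128.7 CPM in cre- libraries (-0.59 ± 0.19, adjusted p of 0.151 in edgeR and 0.0445 in DESeq2). The DESeq2 call of Kalrn was lost without independent filtering, with the replicate number as a block, with the vascular term and in 5 of the 7 fits that left out 1 library. Sipa1l1 (SPAR), a GTPase-activating protein for Rap, was at 118.8, 121.0 and 138.7 CPM in cre+ libraries and 167.6, 174.2, 166.2 and 133.9 CPM in cre- libraries (-0.35 ± 0.12, adjusted p of 0.171 in edgeR). The partners Arhgef7 (beta-PIX) and Git1, which act as one complex in spines and in many other cells, stood at -0.15 ± 0.09 and 0.09 ± 0.12. Git1 was below 0 with library totals as the scale (-0.03).

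Of the genes tied to spine actin, Baiap2 (IRSp53), which bends membrane and binds both PSD-95 and Shank, was at 135.6, 150.6 and 140.3 CPM in cre+ libraries and 191.5, 207.4, 229.9 and 153.9 CPM in cre- libraries. The groups did not overlap, and the fold change was -0.46 ± 0.14 (adjusted p of 0.137 in edgeR and 0.038 in DESeq2). The DESeq2 call of Baiap2 was lost without independent filtering, with the vascular term and in 6 of the 7 fits that left out 1 library. Ddn (dendrin), whose RNA is carried into dendrites, had -0.78 ± 0.44 with CPM of 29.2 to 102.5 in cre+ libraries and 69.0 to 187.6 in cre- libraries. Synpo (synaptopodin), the protein of the spine apparatus, had -0.53 ± 0.25, Ctnnd2 (delta-catenin) -0.45 ± 0.24 and Abi2, a part of the WAVE complex, -0.21 ± 0.24. None of these 4 had an unadjusted p under 0.05 in edgeR, and DESeq2 called 0 of them.

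Cask, Lin7 and Magi proteins are PDZ adaptors found on both sides of the synapse. Lin7b was at 2.7, 9.8 and 7.6 CPM in cre+ libraries and 19.5, 17.2, 16.5 and 11.3 CPM in cre- libraries. The groups did not overlap, and the fold change was -1.26 ± 0.40 (adjusted p of 0.149 in edgeR and 0.019 in DESeq2). It shares 20% of its exon bases with the predicted gene Gm45619 on the other strand. Lin7a was at 7.1, 8.3 and 14.1 CPM in cre+ libraries and 18.8, 19.0, 16.4 and 10.8 CPM in cre- libraries (-0.73 ± 0.29). Magi2 had -0.40 ± 0.16 and Cask, which is X-linked, -0.12 ± 0.12. Scaled to neuronal genes Lin7b (-0.73 ± 0.33) and Lin7a (-0.14 ± 0.30) were below 0 and Magi2 and Cask were above, and edgeR called none of these. In that scaling 18.4% of all genes were below 0.

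Ratios of paralogs within a library do not depend on how libraries are scaled. They can still depend on the mix of cells, and that part was not tested. Pairs are written in an order that makes every difference (cre+ minus cre-) negative, so this shared direction is not a result. Over 21 pairs, 0 passed an exact two-sided permutation test after Benjamini-Hochberg adjustment, and the lowest adjusted p was 0.2. Only Shank1 over Shank3 reached the smallest p that an exact permutation over 35 assignments of 7 libraries allows (p = 0.0286). Its log2 ratio was -1.97, -1.48 and -1.07 in cre+ libraries and -0.18, -0.33, -0.70 and -0.76 in cre- libraries, a difference of -1.01 without overlap. The ratio was lowest in cre+ replicate 1 and, of the cre- libraries, in replicate 4. Those held the most endothelial marker RNA of their genotypes. Shank2 over Shank3 differed by -0.80 (exact permutation p = 0.0571), with overlap.

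In 2 further pairs the groups did not overlap. Dlg3 over Dlg1 was at -0.46, -0.28 and -0.37 in cre+ libraries and 0.31, 0.21, 0.37 and -0.06 in cre- libraries, a difference of -0.58 (exact permutation p = 0.0571). Dlgap3 over Dlgap4 was at -2.27, -1.48 and -1.52 in cre+ libraries and -0.97, -1.48, -0.99 and -1.38 in cre- libraries, a difference of -0.55 (exact permutation p = 0.0571). Here the margin was thin, as cre+ replicate 2 and cre- replicate 2 were both near -1.48. Iqsec3 over Iqsec1 (-0.85), Tanc2 over Tanc1 (-0.84) and Dlg4 over Dlg1 (-0.70) were also lower against a family member whose own fold change was above 0, but overlapped between genotypes. Dlgap2 over Dlgap4 (-1.01, exact permutation p = 0.114) and Dlgap2 over Dlgap1 (-0.80, exact permutation p = 0.0857) were lower against members whose own fold changes were below 0, and these too overlapped. In contrast, Dlg4 over Dlg2 (-0.10), Dlg4 over Dlg3 (-0.13), Dlg2 over Dlg3 (-0.03) and Shank1 over Shank2 (-0.21) differed by less than 1 SD of the cre+ libraries.

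**Figure D4:**
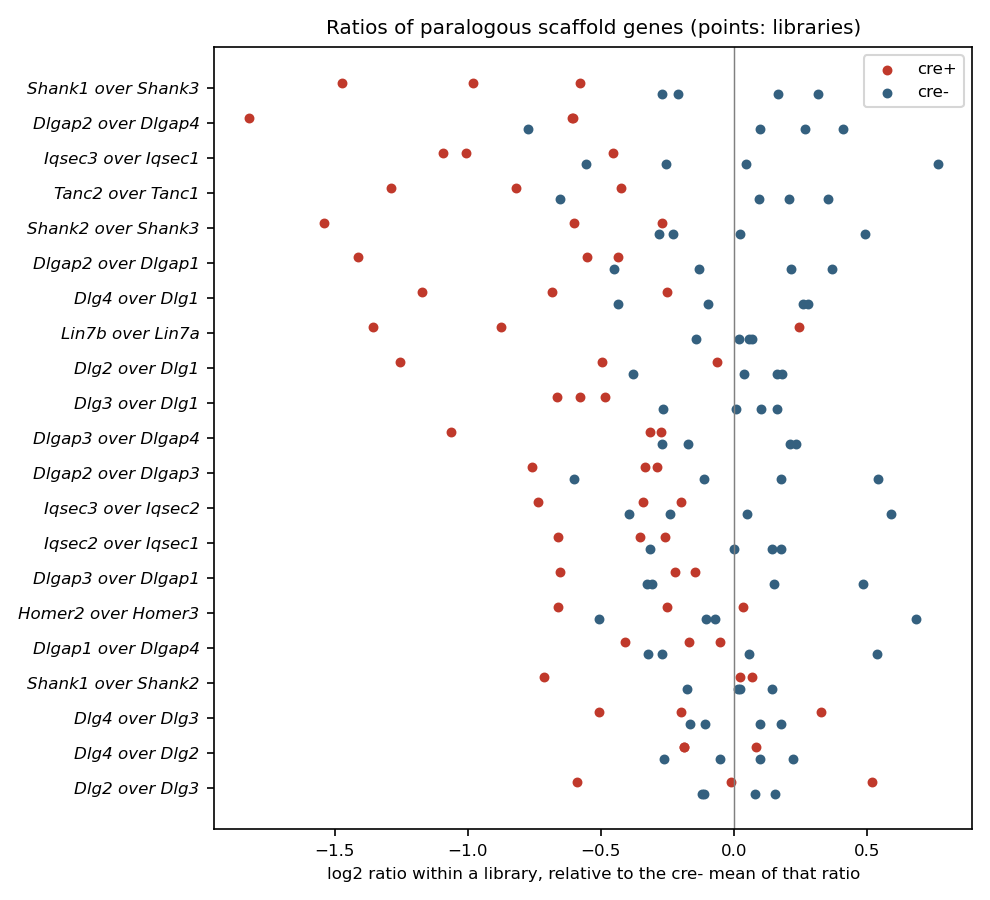
Log2 ratio of 21 pairs of paralogous scaffold genes in each library, relative to the cre- mean of that ratio (horizontal axis); upper points of a row are cre+ and lower points cre- libraries. The cre+ points lie left of all cre- points in Shank1 over Shank3, Dlg3 over Dlg1 and Dlgap3 over Dlgap4, and overlap them in the other 18. The order within each pair makes every difference negative, so the side on which the cre+ means fall was set by that order.

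Divided by transcript length, the highest scaffold genes were Git1 in cre+ neurons (54.1 ± 8.20 CPM per kb, SD, n = 3, against 50.9 ± 2.46 in cre- neurons, n = 4) and Baiap2 in cre- neurons (51.8 ± 2.80 in cre+ and 71.3 ± 11.7 CPM per kb in cre- neurons). Dlgap4 followed at 37.3 ± 4.59 in cre+ and 48.2 ± 5.12 CPM per kb in cre- neurons, ahead of Dlg4 at 21.3 ± 6.38 and 31.5 ± 9.04. In this order 31 of 35 neighboring pairs in cre+ neurons and 32 of 35 in cre- neurons lay within the larger SD of the pair. Dlgap2 was the lowest in both (0.88 ± 0.41 and 2.25 ± 0.81 CPM per kb), next to Cnksr2 (1.25 ± 0.62 and 2.79 ± 1.34). Among the larger shifts of rank, Tanc1 stood at rank 20 in cre+ and 31 in cre- neurons and Iqsec1 at rank 7 in cre+ and 15 in cre- neurons. Across the 36 genes the fold change had a Spearman correlation of 0.09 with gene length, 0.12 with transcript length and -0.17 with GC content, against 0.07, 0.07 and -0.05 across 18799 genes, given as a description because genes share libraries.

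**Figure D5:**
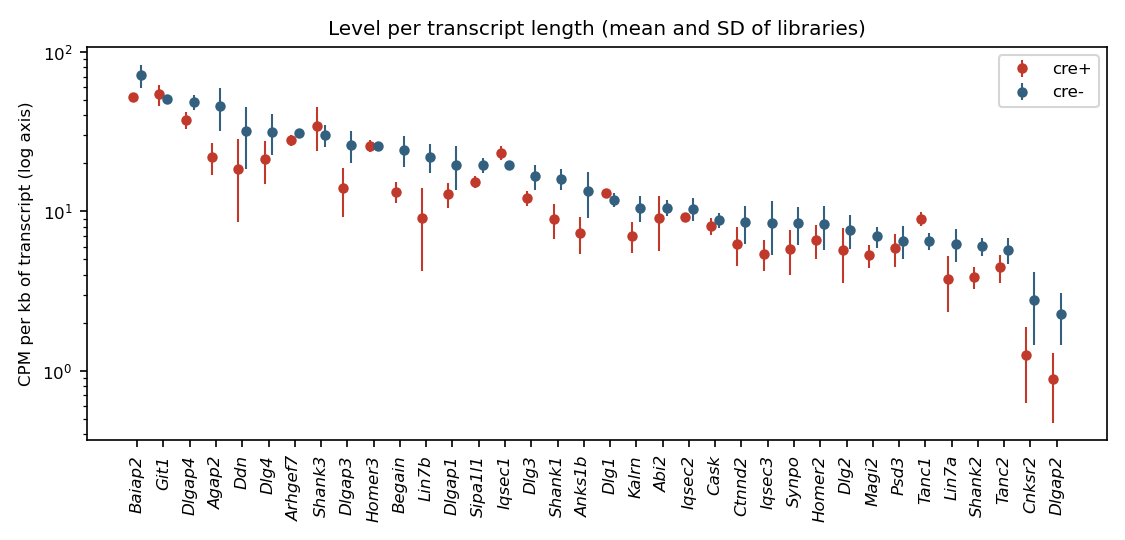
Level of the 36 scaffold genes per kb of transcript (vertical axis, log scale, CPM per kb; points are means and bars SDs of 3 cre+ and 4 cre- libraries), ordered by the cre- level. In the scaling shown, 31 genes have a lower cre+ mean, and Dlgap2 and Cnksr2 are the lowest in both genotypes; scaled to neuronal genes 12 fold changes are below 0, as are those of 18.4% of all genes.

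A wider list held 39 other postsynaptic density genes. Of these 24 were below 0 and 15 above, with a median of -0.24, where 54% of all genes were below 0. Scaled to neuronal genes 8 were below 0, as were 18.4% of all genes. DESeq2 called 10 lower, against 5.48% of the genes that it gave an adjusted p, and 3 higher, against 6.7%. In edgeR 0 were called. At an unadjusted p under 0.05 it gave 10 lower, where 9.75% of all genes were, and 4 higher, where 10.2% were. Grip1, which binds AMPA receptor tails, had -0.55 ± 0.11, and Caskin1, a partner of Cask, -0.68 ± 0.15. On the other side Sipa1l2, a relative of Sipa1l1, was at 203.2, 168.7 and 202.1 CPM in cre+ libraries and 130.6, 126.7, 141.8 and 140.7 CPM in cre- libraries (0.50 ± 0.10, adjusted p of 0.0939 in edgeR and 0.000989 in DESeq2). Magi3 had 0.44 ± 0.10 and Cyfip1, a part of the WAVE complex found in many cell types, 0.41 ± 0.10. Both were called higher by DESeq2.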

How the data were processed

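RNA of neurons from 3 cre+ and 4 cre- mice was sequenced as paired poly(A) libraries; the study names littermates as replicates, and groups and replicate numbers follow the labels. Per the study's methods, the authors trimmed reads with fastp, aligned them with STAR to GRCm39, filtered with SAMtools, counted with StringTie and tested with DESeq2; versions and the annotation release are not stated in the sources at hand. The deposited values are whole-number counts per gene, and the authors' normalized files were not used. Of the listed symbols 46 were repeated with identical counts and their 49 repeats were dropped. All genes were fitted with edgeR 4.0.16 (R 4.3.3, TMM factors, filterByExpr, robust quasi-likelihood F-test, Benjamini-Hochberg adjustment over 21542 genes), and with DESeq2 1.42.0 and limma 3.58.1 as alternatives. CPM use TMM factors. Paralog ratios used log2 CPM (prior count 2) and exact permutations (Python 3.11.15, scipy 1.17.1). Transcript lengths are from GENCODE M39. All 36 genes could be named; values by library are given for the Dlg, Dlgap, Shank, Homer and Iqsec families, the 8 others with the smallest edgeR p, and a few chosen after their values were seen (Cnksr2, Tanc2, Lin7a). Of the wider list, Homer1 and those of the 3 smallest p in each direction are named, save an item that is not reported here. The scaffold genes and lists were chosen with earlier results of these data known. The column codes in the files are unexplained and a batch they might mark cannot be told apart from genotype.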

Additional observations from a re-analysis of the deposited data

Results flagged for a closer look

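In 1 of 57 sets of 4 cre- values (36 genes and 21 ratios) a single library stood apart by Dixon's test, where chance alone flags about 5% of such sets. Cnksr2 was at 60.8 CPM in cre- replicate 1, against 23.3 to 29.0 CPM in the other cre- libraries, a gap of 0.849 of the group's range. Without that library its fold change kept its sign. The 17 scaffold genes that were highest of all 7 libraries in cre- replicate 1 include Cnksr2, and the neuronal, not synaptic genes were also highest there (mean log2 CPM of 7.74). The part of this in the value was not tested.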

How the results depend on the processing

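Among the 36 scaffold genes, 31 kept the sign of their fold change in every alternative except scaling to neuronal genes, and 15 kept it in all 17. Scaling to neuronal genes took the median to 0.18 and turned the sign of Dlg2 (0.15), Dlg3 (0.21), Dlg4 (0.049), Dlgap1 (0.028), Dlgap4 (0.26), Homer2 (0.27), Homer3 (0.65), Tanc2 (0.24), Iqsec2 (0.48), Psd3 (0.45), Kalrn (0.027), Arhgef7 (0.49), Sipa1l1 (0.29), Baiap2 (0.19), Abi2 (0.31), Synpo (0.077), Ctnnd2 (0.17), Cask (0.49) and Magi2 (0.23). This scaling raises all genes nearly alike by construction (their median by 0.64). The scaffold median relative to all genes (-0.42, against -0.41) was thus nearly fixed in advance. Under this scaling edgeR called 2 scaffold genes higher, among 2657 of all genes. DESeq2 called 0 scaffold genes lower and 4 higher, among 53 and 5218 of all genes. Git1 was at -0.033 with library totals, where the median of all genes moved by -0.12 and DESeq2 called 18 lower and 0 higher (over all genes 1773 lower and 525 higher, against 895 and 1095). Homer3 was at 0.0037 with DESeq2 size factors and 0.0031 in DESeq2. With the vascular covariate the edgeR median of the scaffold genes was -0.56, with Shank3 at -0.040, Git1 at -0.15 and Abi2 at 0.41. DESeq2 then called 1 lower and 0 higher, among 63 and 48 of all genes.

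Leaving out 1 library at a time, the median of the scaffold genes ran from -0.58 to -0.33, the DESeq2 count of lower genes from 4 to 18 and that of higher genes from 0 to 1 (0 when cre+ replicate 1 or 2 or cre- replicate 2 or 3 was left out), where the counts over all genes ran from 348 to 1318 lower and 407 to 1163 higher, and edgeR called 0 throughout. Signs that turned are given with the lowest and highest value over these fits. Shank3 ran from -0.079 to 0.37, Psd3 from -0.31 to 0.0098, Git1 from -0.024 to 0.20 and Abi2 from -0.45 to 0.059, each turned by leaving out cre+ replicate 1, and Homer3 from -0.064 to 0.065, turned by cre+ replicate 2 or cre- replicates 3 or 4. Of the ratio differences, Dlg4 over Dlg3 ran from -0.35 to 0.065 (cre+ replicate 1), Dlg2 over Dlg3 from -0.30 to 0.25 (cre+ replicate 1, and 0.025 without cre- replicate 2), and Shank1 over Shank2 from -0.35 to 0.044 (cre+ replicate 2). The exact test of ratios cannot go below 0.0667 with 1 cre+ library fewer, 0.1 with 1 cre- library fewer and 0.25 over 3 pairs.

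Deviations of same-numbered libraries from their group means had correlations of -0.03, -0.0036 and 0.09. Those of differently numbered libraries ran from -0.11 to 0.16, so these values cannot show whether the numbers pair the mice. With the replicate block the edgeR median was -0.57 with 0 calls and Homer3 at 0.012. DESeq2 with the block called 10 lower, of which 9 were also called without it, and 1 higher. Over all genes it called 778 lower and 765 higher, against 895 and 1095 without the block.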
